A study of Drosophila melanogaster with 12 samples.

Results

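The data described here are the mRNAs found on polysomes in Drosophila melanogaster S2 cells after depletion of Porthos. They were chosen by label: the 3 polysome libraries of cells given porthos double-stranded RNA (dsRNA) and the 3 polysome libraries of cells given GFP dsRNA, which are 6 of the 12 libraries of the series. Genes were kept if they passed an expression filter within these 6 libraries, which left 8566 of 17023 genes in the files. The 6 input libraries, made from the unfractionated lysate of cells with the same treatments, entered no fit on polysomes and serve only for comparison.

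By its title, the study asks how macrophages power their entry into tissue through mitochondria. S2 is an established cell line, derived from embryos, that resembles hemocytes, the blood cells of the fly. In both groups cells received 1 µg of dsRNA, were moved to larger dishes 48 h later and were harvested after 3 more days. The porthos dsRNA group was directed against porthos (symbol pths, also CG9253), and the GFP dsRNA group, the control, against a gene that flies do not have. Cycloheximide, which halts ribosomes on mRNA, was given to all cells for 3 min at 100 µg/ml, and lysates were separated on sucrose gradients of 10% to 50%. The labels' protocol names EDTA in the lysis buffer and magnesium in the gradient. EDTA binds the magnesium that holds ribosomal subunits together, and gradient profiles were not analysed here. RNA from the polysome fractions was extracted with phenol and chloroform, selected for poly(A) tails and made into libraries with a directional kit. The labels do not say whether replicates were grown as separate cultures. The p-values therefore reflect only how much these samples vary, and that variation may be technical.

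Porthos belongs to the DEAD-box proteins, enzymes that use ATP to open or remodel RNA structures. Its yeast and human relatives act in the nucleolus, where ribosomal RNA is processed and ribosomal subunits are put together. A polysome is an mRNA that carries several ribosomes at once, and the amount of an mRNA on polysomes depends both on how much of it the cell holds and on how much of it is being translated. A short coding sequence has room for fewer ribosomes than a long one. Values are given as CPM, the counts of a gene relative to all counts of its library, scaled so that the average gene is level between libraries, so that a change shared by all polysomal mRNA could not be seen.

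Depth was 7559406 to 9453365 counts per polysome library, and 3 counts corresponded to between 0.317 and 0.397 CPM. Replicate 3 of the porthos dsRNA group stood apart from the other 5 libraries. It held a count for 10377 genes, against 11485 and 11569 genes in the other porthos dsRNA libraries and 11615, 11774 and 11654 genes in the GFP dsRNA libraries. With every library thinned to the smallest depth it still held the fewest (10370 genes, against 11352 to 11654 in the others). On the first principal component (48.8% of the variance) it lay at 34.3, with the other porthos dsRNA libraries at 5 and -2.24 and the GFP dsRNA libraries between -16.9 and -9.54. Results that rest on it are therefore also given without it. Of the markers of hemocytes, Hml, Pxn, eater, crq, Col4a1, vkg, SPARC and srp were present on polysomes in all 6 libraries, while NimC2 had no count, which allows up to 0.397 CPM, and NimC1 reached 0.365 CPM with porthos dsRNA and 0.835 CPM with GFP dsRNA. Among 13 markers of neuron, muscle and fat body, elav lay between 68.0 and 94.9 CPM and Lsp1alpha had no count. Where a gene overlaps another on the opposite strand its counts are uncertain, since the strand setting of the counting is not given in the sources used here. Among the genes named below with their values in every library this holds for pths, Pxn, Nopp140, DENR, RpS20, ATPsynbeta, r, aub, Tom70 and CG12213, and pit overlaps Fadd on the same strand. Of the genes named by their change alone it holds for CG30349, Nepl20, CG5645 and CG34033, among others.

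porthos mRNA itself (FBgn0032919, chromosome 2L, 21143229 to 21145146 on the plus strand in dm6) was lower on polysomes in the treated cells. It had 118, 147 and 97.3 CPM in the porthos dsRNA libraries, against 339, 333 and 326 CPM in the GFP dsRNA libraries. The groups did not overlap, and the lowest GFP dsRNA library lay above every porthos dsRNA library. On the log2 scale it fell by 1.46 with a standard error of 0.12 (edgeR quasi-likelihood test, Benjamini-Hochberg adjusted p = 1.7e-06), which left 121 ± 24.9 CPM with porthos dsRNA and 332 ± 6.4 CPM with GFP dsRNA (SD, n = 3 each). Its call was kept in all 6 fits that left out 1 library.

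**Figure D1:**
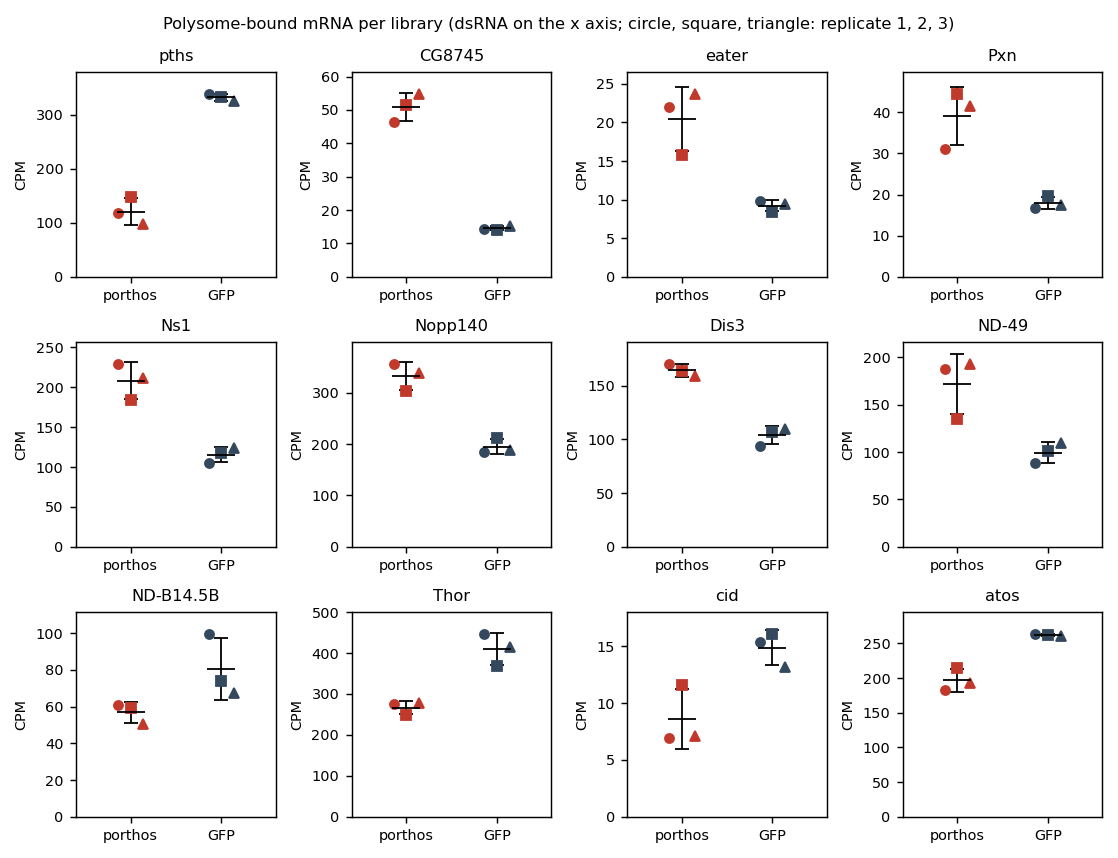
Polysome CPM (y axis, from 0, a scale of its own in each panel) of 12 named genes in each library, with porthos dsRNA on the left and GFP dsRNA on the right; symbols are the 3 replicates, the long bar is the mean and the whiskers the SD. In all 12 panels the 3 porthos dsRNA libraries lie entirely on one side of the 3 GFP dsRNA libraries, as for pths (97.3 to 147 CPM against 326 to 339 CPM).

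Over all genes, 559 were higher and 294, porthos among them, were lower on polysomes with porthos dsRNA, out of 8566 tested, by edgeR's quasi-likelihood test at an adjusted p under 0.05. That is 6.53% higher and 3.43% lower (9.96% in all), and these shares are the background for the counts that follow. Most changes were small. The median called gene changed to 1.37 times its GFP dsRNA level among those higher and to 0.742 times among those lower, and 16 higher and 7 lower genes passed a 2-fold change. The porthos dsRNA libraries lay entirely above or below the GFP dsRNA libraries for 836 of the 853 called genes. Of all genes tested they lay entirely above for 16.8% and entirely below for 13.7%. Rises made up 65.5% of the calls. When libraries were scaled only by their size they made up 49.1%, with 422 genes up and 437 down.

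The number of calls depended on single libraries more than on the choice of test. Without porthos replicate 3 it was 382 higher and 163 lower genes (4.38% and 1.87%, or 6.25% in all), and 488 genes were called both with and without that library. Leaving out porthos replicate 1 (145 higher and 30 lower), GFP replicate 1 (174 and 29) or GFP replicate 2 (211 and 57) cut it further, while leaving out porthos replicate 2 raised it to 910 higher and 648 lower. Among 138 named genes that were called, 40 kept the call in all 6 such fits, and 0 changed direction in any of 15 alternative settings. Of the 138, 93 lost it without porthos replicate 1, 82 without GFP replicate 1, 77 without GFP replicate 2, 38 without porthos replicate 3, 25 without GFP replicate 3 and 3 without porthos replicate 2. A call said below to be kept was kept in these 6 fits, as were those of eater, Pxn, ApepP, CG12213, CG8042 and FBgn0044510. The remaining calls of these named genes were lost in at least 1 of them.

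**Figure D2:**
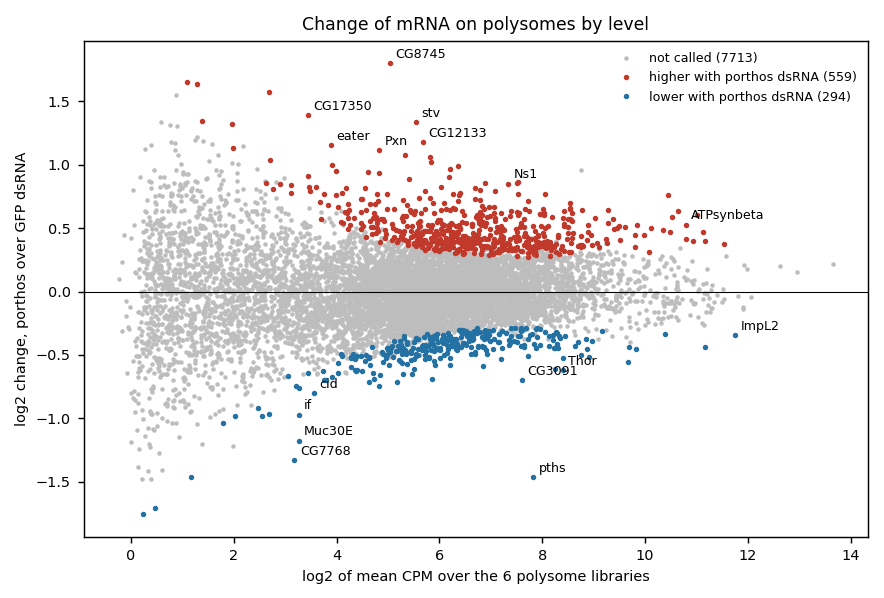
Log2 change on polysomes, porthos over GFP dsRNA (y axis), against the log2 of the mean CPM over the 6 polysome libraries (x axis) for 8566 genes; red points are the 559 genes called higher, blue points the 294 called lower and grey points were not called. Called genes lie mostly within 1.5-fold of no change (76.0% of the higher and 86.1% of the lower ones), and pths and CG8745 stand outside the cloud.

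The direction of the change went with the length of the coding sequence. Among mRNAs with short coding sequences many more were lower than higher on polysomes with porthos dsRNA, and among those of intermediate to long coding sequences it was the other way round. In the shortest of 5 equal groups (78 to 732 bases) 140 genes fell and 11 rose, that is 8.67% and 0.682% of 1614 genes, with a median log2 change of -0.16. In the fourth group (1671 to 2619 bases) 31 fell and 186 rose, 1.92% and 11.5%, with a median of 0.08. The longest group (2619 to 68850 bases) held fewer called genes, with 20 lower and 95 higher and a median of 0.04. The median coding length was 1746 bases among higher genes, 729 bases among lower genes and 1392 bases among genes that were not called.

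Within the shortest group the gradient went on. In the shortest of 10 equal groups (78 to 513 bases) 95 of 807 genes fell and 4 rose, with a median of -0.21, and in the next (513 to 732 bases) 45 fell and 7 rose, with a median of -0.11. Input showed no such gradient: over the same 10 groups its medians ran from -0.01 to 0.02. The untranslated regions showed little of it in their medians either, which on polysomes ran from -0.02 to 0.01 across 5 equal groups of 5′ UTR length and from -0.02 to 0.03 across 5 groups of 3′ UTR length. The share called higher did vary with 5′ UTR length, from 9.79% at 78 to 118 bases to 3.35% at 401 to 4957 bases. Lengths come from the annotated canonical transcript, known for 8069 of the tested genes.

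Per library, the level of mRNAs in the shortest group relative to the fourth was set against the mean of the 6 libraries. It was -0.111, -0.026 and -0.205 on the log2 scale in the porthos dsRNA libraries, against 0.303, 0.038 and 0.018 in the GFP dsRNA libraries. All 3 porthos dsRNA libraries lay below all 3 GFP dsRNA libraries, but the values within each group were spread widely, with GFP replicate 1 far above the other two. The means were -0.114 ± 0.089 and 0.12 ± 0.159 (SD, n = 3 each) and differed by -0.234, with an exact two-sided permutation p of 0.1, the smallest that 3 against 3 libraries can give. The groups compared are those with the lowest and the highest median change in these same 6 libraries, so this p-value gives no independent support. Leaving out GFP replicate 1 reduced the difference to -0.147, and leaving out porthos replicate 3 gave -0.191. In input the corresponding difference was 0.007 (exact permutation p = 0.5). Counts of short mRNAs that fell rested on a few libraries as well: 14 genes of the shortest group fell without GFP replicate 1, 15 without porthos replicate 1, 33 without GFP replicate 2, 80 without porthos replicate 3 and 253 without porthos replicate 2. In these fits the median of the shortest group stayed below 0, between -0.20 and -0.09.

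**Figure D3:**
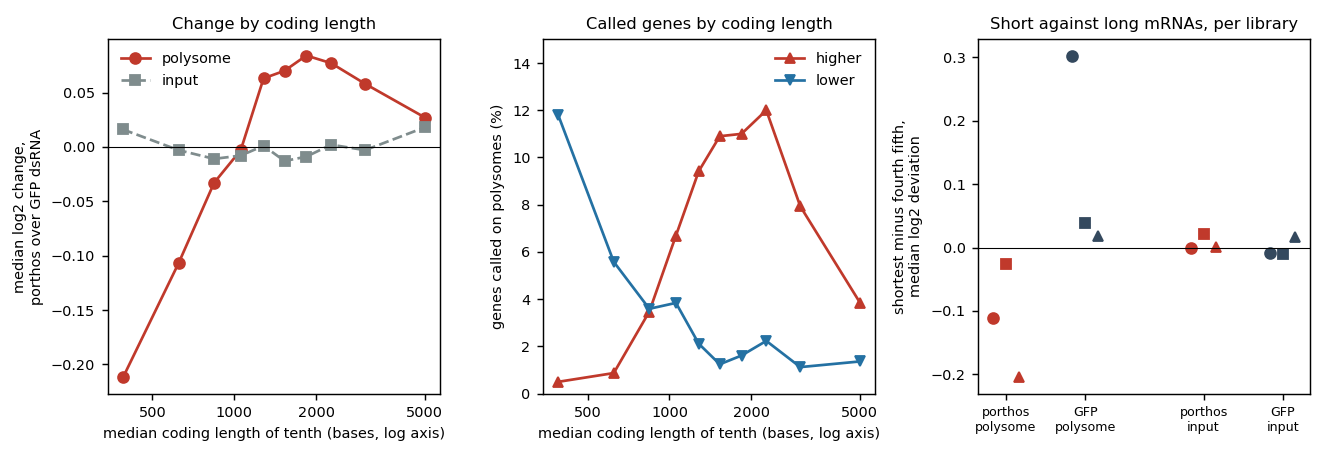
Left, the median log2 change, porthos over GFP dsRNA, in 10 equal groups of coding length (x axis, bases, log axis) on polysomes and in input; middle, the share of each group called higher or lower on polysomes; right, per library, the median log2 level of the shortest of 5 groups minus that of the fourth, after subtraction of each gene's mean over the 6 libraries of that fraction. The polysome line climbs from -0.21 in the shortest group to 0.08 between 1671 and 2619 bases while the input line stays near 0, and in the right panel GFP replicate 1 on polysomes (0.303) stands far above the rest.

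Many genes for ribosome assembly rose. Of 48 genes of ribosome biogenesis, all of which were tested and which do not include porthos, 29 rose and 0 fell, with a median log2 change of 0.38 where the median of all genes was -0.005. Ns1 encodes nucleostemin, a nucleolar GTPase needed for the large subunit. It had 229, 184 and 212 CPM with porthos dsRNA, against 106, 117 and 124 CPM with GFP dsRNA, which is 0.85 ± 0.10 on the log2 scale (± SE here and below; edgeR adjusted p = 8.7e-05). Its groups lay well apart, as did those of Nopp140, a nucleolar phosphoprotein that accompanies small nucleolar ribonucleoproteins. Nopp140 had 356, 304 and 338 CPM with porthos dsRNA and 185, 212 and 189 CPM with GFP dsRNA, a log2 change of 0.77 ± 0.09. Nnp-1 (0.65 ± 0.09), CG13097 (0.65 ± 0.09) and CG30349 (0.63 ± 0.09) rose with calls that were kept, as were those of Ns1 and Nopp140.

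The remaining rises spanned several steps of the pathway. Tsr1 (0.54), which acts late on the small subunit, the kinases RIOK1 (0.45) and RIOK2 (0.58), the box C/D component Nop56 (0.36) and Mybbp1A (0.48) were among them. Other parts of the machinery were not called: Fib, the methyltransferase of box C/D particles, had a log2 change of 0.05, and the H/ACA components Gar1, NHP2 and Nop10 had -0.05, -0.15 and -0.50, none of which passed. Without porthos replicate 3, 27 genes of the list were higher and 1 lower. Fewer were called without porthos replicate 1 (11 higher), GFP replicate 1 (14) and GFP replicate 2 (17), but the median of the list stayed between 0.33 and 0.40 in all 6 fits. In input 19 members were higher and 0 lower, with a median of 0.18 (background in input 4.12% higher, 3.78% lower and 7.9% in all). The difference between the polysome and input change was called for 2 members, Ns1 and Nopp140.

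**Figure D4:**
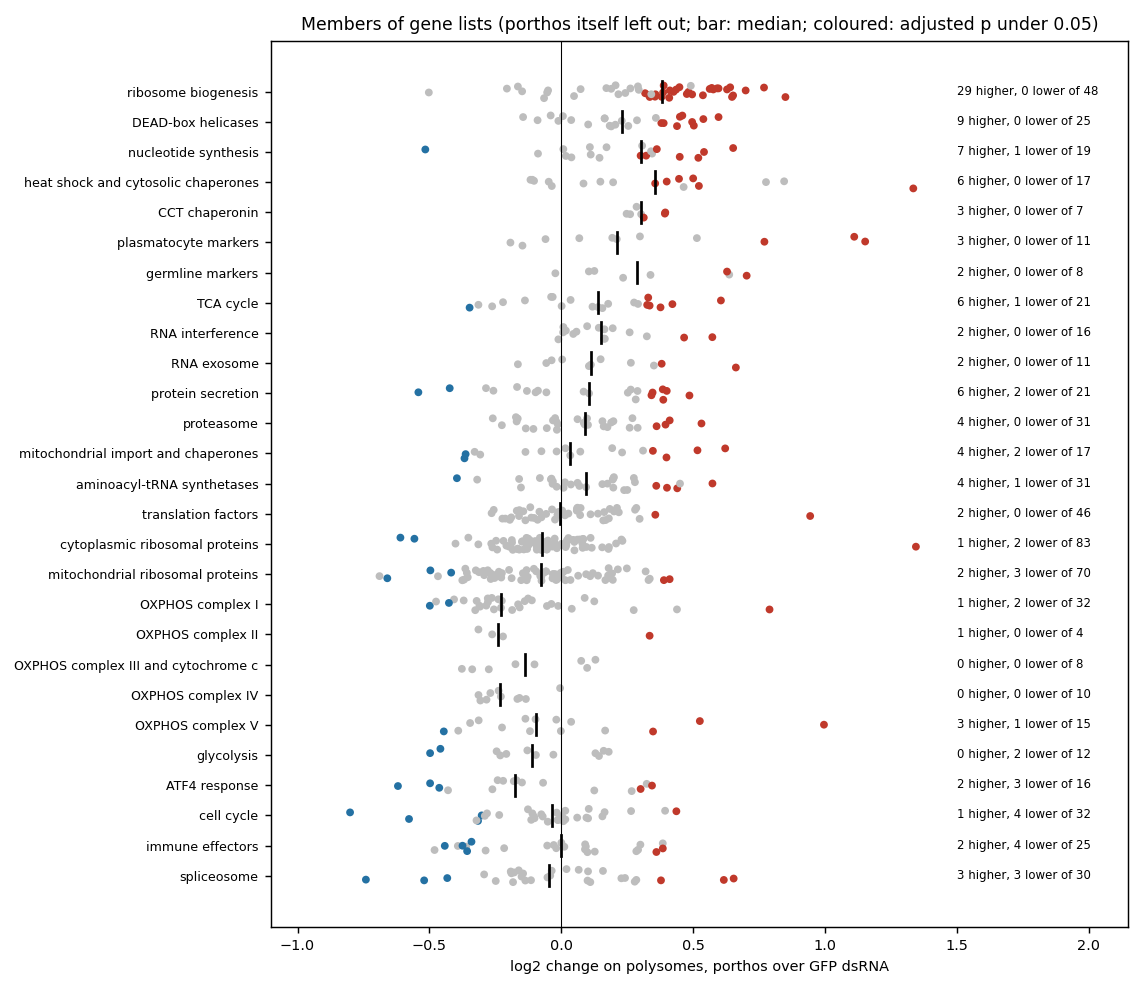
Log2 change on polysomes, porthos over GFP dsRNA (x axis), of each tested member of 27 gene lists; points are genes, coloured if called (red higher, blue lower), the black bar is the list's median and the text gives the counts. Ribosome biogenesis lies to the right with 29 of 48 members higher, and OXPHOS complex IV lies wholly to the left of 0 with none of 10 members called.

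Of 25 DEAD-box helicases tested besides porthos, 9 rose and 0 fell, with a median of 0.23, and 4 lay below 0. pit, whose human relative DDX18 acts in ribosome assembly, had 168, 133 and 156 CPM with porthos dsRNA and 97.3, 104 and 101 CPM with GFP dsRNA, without overlap (0.60 ± 0.10, edgeR adjusted p = 0.0013). Dbp73D (0.54 ± 0.10), likewise a relative of a nucleolar helicase in humans, rose, as did me31B (0.38), a helicase of translational repression. eIF4A, the helicase of translation initiation, had -0.09 and did not pass. Some members, among them pit and Dbp45A, belong to the ribosome biogenesis list as well. The calls of pit and Dbp73D were kept. Over the list, 6 helicases were higher without porthos replicate 3, 3 without GFP replicate 1, 3 without GFP replicate 2 and 2 without porthos replicate 1.

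Among the 11 subunits and cofactors of the RNA exosome, the complex that trims and degrades RNA from the 3′ end, the catalytic subunit Dis3 and the helicase Mtr4 rose and none fell. Dis3 had 170.2, 164 and 159 CPM with porthos dsRNA, against 94.1, 107 and 110.01 CPM with GFP dsRNA (0.66 ± 0.09, edgeR adjusted p = 0.00038), and the libraries of either group were close together. The median of the list was 0.11, and the core subunits Rrp42 (0.35 ± 0.13) and Mtr3 (0.26 ± 0.11) did not pass. The call of Dis3 was kept, and that of Mtr4 (0.38 ± 0.10) was lost in 4 of the 6 fits (highest adjusted p = 0.11).

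Of 19 tested enzymes that make nucleotides 7 rose and 1 fell, with a median of 0.30. r encodes the multifunctional enzyme that starts pyrimidine synthesis. It had 82.6, 79.7 and 95.4 CPM with porthos dsRNA, against 55.9, 56.8 and 51.1 CPM with GFP dsRNA (0.65 ± 0.10, edgeR adjusted p = 0.001). Its change in input was 0.99 ± 0.06, and the difference from that on polysomes did not pass (-0.34, adjusted p = 0.15). ras, the IMP dehydrogenase of guanine nucleotide synthesis (0.54 ± 0.10), and both subunits of ribonucleotide reductase, RnrS (0.52 ± 0.11) and RnrL (0.36 ± 0.09), rose. The nucleoside diphosphate kinase awd, with a short coding sequence of 507 bases, fell (-0.52 ± 0.14). The calls of r and ras were kept. RnrS lost its call without porthos replicate 1 (adjusted p = 0.078), awd and RnrL without that library, GFP replicates 1 and 2 and porthos replicate 3, and the list had 2 to 7 members higher over the 6 fits, fewest without porthos replicate 1.

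Of 17 heat shock and chaperone genes 6 rose and 0 fell on polysomes, with a median of 0.36, and 5 lay below 0. In input the median was 0.02 and none was called, but the difference between the fractions was called for no member. Hsc70-4, the constitutive Hsp70, had 1362, 1155 and 1371 CPM with porthos dsRNA, against 922, 980.4 and 846 CPM with GFP dsRNA (0.50 ± 0.10, edgeR adjusted p = 0.0064). Stip1, which links Hsp70 to Hsp90 (0.52 ± 0.11), the co-chaperones Droj2 (0.45 ± 0.10) and DnaJ-1 (0.36), and Hsc70-3, the Hsp70 of the endoplasmic reticulum (0.40 ± 0.12), rose too. The small heat shock genes Hsp23 (-0.11), Hsp26 (-0.10) and Hsp27 (-0.12) did not pass.

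The co-chaperone gene stv, which serves chaperone-assisted autophagy, shows how much 1 library can weigh. It had 49.5, 37.3 and 113 CPM with porthos dsRNA, against 15.6, 36.0 and 27.0 CPM with GFP dsRNA. The value of porthos replicate 3 was far above all others, and porthos replicate 2 was barely above GFP replicate 2. Its log2 change of 1.33 ± 0.31 (edgeR adjusted p = 0.014) was 0.72 without porthos replicate 3, and the call was lost without GFP replicate 1 (adjusted p = 0.097). With all 6 libraries DESeq2 did not call stv (adjusted p = 0.12). Without porthos replicate 3, 4 members of the chaperone list were higher, without GFP replicate 1 there were 3, and without porthos replicate 1 there was 1, when Hsc70-4, Stip1 and Droj2 had adjusted p of 0.072, 0.078 and 0.083.

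The 7 tested subunits of the CCT chaperonin, the ring that folds actin and tubulin, were all above 0 on polysomes, between 0.25 and 0.39, with 3 called higher (CCT3, CCT6 and CCT7). CCT3 had 349, 302 and 314 CPM with porthos dsRNA and 228, 257 and 251 CPM with GFP dsRNA, without overlap (0.39 ± 0.09, edgeR adjusted p = 0.014). In input the list's median was -0.05 and none was called. The difference between polysome and input changes was not called for any subunit (CCT6 and CCT7 came nearest of those named, with differences of 0.48 and 0.46 and an adjusted p of 0.062 each). No subunit was called without GFP replicate 1, GFP replicate 2 or porthos replicate 1, and all 7 were without porthos replicate 2.

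In the proteasome, which degrades marked proteins, 4 of 31 tested subunits rose and 0 fell, with a median of 0.09. They were the ATPases Rpt6 (0.53 ± 0.11) and Rpt1 (0.40 ± 0.11), the ubiquitin receptor Rpn10 (0.41 ± 0.09) and Rpn5 (0.36 ± 0.11), and none belonged to the catalytic core. None was called without GFP replicate 1 or porthos replicate 1, and 2 were without GFP replicate 2 or porthos replicate 3. Among 18 subunits of the V-ATPase, the proton pump of endosomes and lysosomes, Vha68-2 (0.35 ± 0.10) and VhaSFD (0.31 ± 0.09) rose, and without porthos replicate 3 the counts turned to 0 higher and 2 lower.

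The genes of protein secretion that rose and those that fell differed in coding length. Of 21 tested, 6 rose and 2 fell. The coding sequences of those that rose were 1221 to 2364 bases long and those of the pair that fell were 234 and 330 bases long. The chaperone genes of the endoplasmic reticulum ERp60 (0.49 ± 0.10) and Calr (0.40 ± 0.10), the translocon partner Sec63 (0.35 ± 0.08) and Srp54k (0.39 ± 0.09), the GTPase of the signal recognition particle, were higher. Its small subunits Srp9 and Srp14 were lower. Srp9 had 78.8, 81.7 and 74.1 CPM with porthos dsRNA, against 122, 101 and 92.2 CPM with GFP dsRNA (-0.42 ± 0.11, edgeR adjusted p = 0.019). Over the list, the 6 members under 600 bases had a median of -0.27 and the 12 over 1200 bases a median of 0.32. The calls were few without porthos replicate 1 (0 higher, 0 lower), GFP replicate 1 (1 and 0) and GFP replicate 2 (2 and 0).

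Nuclear genes for oxidative phosphorylation (OXPHOS), the respiratory chain and ATP synthase of mitochondria, mostly lay below 0 on polysomes and few passed the test. Of 69 tested members 54 were below 0, with a median of -0.19 on polysomes and 0.08 in input, while 3 fell and 5 rose on polysomes. Shares of 7.25% higher and 4.35% lower are near the backgrounds of 6.53% and 3.43%. The difference between the polysome and input change was called for no member. Those that fell were ND-B14.5B and ND-ACP of complex I, the enzyme that takes electrons from NADH, and ATPsynG of the ATP synthase. ND-B14.5B had 60.8, 59.0 and 50.4 CPM with porthos dsRNA, against 99.6, 73.8 and 67.5 CPM with GFP dsRNA (-0.50 ± 0.13, edgeR adjusted p = 0.023). Its groups did not overlap, and GFP replicate 1 was far above the rest. ATPsynG had 186, 217 and 196 CPM with porthos dsRNA and 331, 254 and 229.6 CPM with GFP dsRNA (-0.45 ± 0.12), again with GFP replicate 1 on top.

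The 5 that rose, a share near the background, have coding sequences over 1200 bases, with 1 exception. ND-49, a core subunit of complex I, had 187, 135 and 193 CPM with porthos dsRNA, against 88.1, 101 and 109 CPM with GFP dsRNA (0.79 ± 0.12, edgeR adjusted p = 0.00098). ATPsynbeta, the catalytic subunit of the ATP synthase, had 2173, 1813 and 2289 CPM with porthos dsRNA and 1318, 1468 and 1574 CPM with GFP dsRNA (0.53 ± 0.11). In both the lowest porthos dsRNA library was replicate 2, still above every GFP dsRNA library. blw, the alpha subunit of the ATP synthase (0.35 ± 0.10), and SdhA, the flavoprotein of complex II (0.33 ± 0.10), rose as well. The exception, ATPsynepsilonL, has a coding sequence of 195 bases (1.00 ± 0.22).

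By complex, 1 of 32 tested members of complex I rose and 2 fell (median -0.23), and in complex V 3 of 15 rose and 1 fell (median -0.10). None of 8 members was called in complex III with cytochrome c (median -0.14) or of 10 in complex IV (median -0.23), the last with every member below 0. Without GFP replicate 1 the medians of complexes III and V were 0.004 and 0.01, so their sign did not hold. The 48 OXPHOS members with coding sequences under 600 bases had a median of -0.26 and the 11 over 1200 bases a median of 0.17. With a trend of gene length, here the length of all annotated exons, removed from each library the median of all 69 was -0.07. In that fit 5 rose and 2 fell. The counts were 3 higher and 1 lower without porthos replicate 3 and 3 and 0 without GFP replicate 1 (median -0.07). They were 3 and 14 without GFP replicate 3 and 7 and 20 without porthos replicate 2. With scaling by library size alone 3 rose and 9 fell. Of the named members ND-49 alone kept its call in all 6 fits, and that of ATPsynbeta was lost without porthos replicate 1 (adjusted p = 0.071). The 13 mitochondrially encoded mRNAs did not pass the expression filter.

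Enzymes of the TCA cycle, which feeds the respiratory chain, were higher more often than lower: 6 of 21 rose and 1 fell, with a median of 0.14. Ogdh, a subunit of the oxoglutarate dehydrogenase complex, had 329, 257 and 363 CPM with porthos dsRNA, against 193, 224 and 207 CPM with GFP dsRNA (0.61 ± 0.11, edgeR adjusted p = 0.0036). The citrate synthase kdn (0.42 ± 0.11) and CG7430 (0.33 ± 0.09) rose, and the malate dehydrogenase Mdh1 fell (-0.35 ± 0.09). The call of Ogdh was kept. Over the list 3 rose without GFP replicate 3, 2 without porthos replicate 3, and 1 without GFP replicate 1, GFP replicate 2 or porthos replicate 1.

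Of 12 genes of glycolysis 2 fell on polysomes and 0 rose (median -0.11, with 4 above 0), and in input 9 fell (median -0.20). Ldh, which turns pyruvate into lactate, had 394, 334 and 342 CPM with porthos dsRNA, against 503, 486 and 521 CPM with GFP dsRNA (-0.50 ± 0.10, edgeR adjusted p = 0.0042). Its change in input was the same size (-0.50 ± 0.05). Tpi fell as well (-0.46 ± 0.11), and Gapdh1 (-0.23 ± 0.09) and Pfk (-0.25 ± 0.09) did not pass. The call of Ldh was kept, and that of Tpi was lost without GFP replicate 1 and without porthos replicate 1 (adjusted p up to 0.096).

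Mitochondrial import and chaperone genes moved both ways. Of 17 tested, 4 rose and 2 fell, and the median of 0.03 turned to -0.006 with scaling by library size alone. Tom70, a receptor of the outer membrane, had 155, 139 and 191 CPM with porthos dsRNA, against 96.9, 106 and 112 CPM with GFP dsRNA (0.62 ± 0.11, edgeR adjusted p = 0.0023). The chaperones Trap1 (0.52 ± 0.09) and Hsp60A (0.40 ± 0.08) and the channel porin (0.35 ± 0.09) rose, while the small carrier Tim8 (-0.37 ± 0.10) and the nucleotide exchange factor Roe1 (-0.36 ± 0.10) fell. Here too the 6 members under 600 bases had a median of -0.22 and the 6 over 1200 bases a median of 0.35. Tom70 and Trap1 kept their calls. Hsp60A lost its own without GFP replicate 2 and without porthos replicate 1, and neither Tim8 nor Roe1 was called without GFP replicate 1, GFP replicate 2 or porthos replicate 1.

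The mRNAs of the ribosome itself changed little on polysomes. Of 83 cytoplasmic ribosomal protein genes 1 rose and 2 fell, with a median of -0.07, while 28 rose and 1 fell in input (median 0.14). The difference between the polysome and input change was called for 1 member, RpS20. RpS20 had 238, 289 and 197 CPM with porthos dsRNA, against 424, 380.3 and 299.9 CPM with GFP dsRNA (-0.61 ± 0.13, edgeR adjusted p = 0.0097). Its groups did not overlap. The other that fell was sta (-0.56 ± 0.14), whose groups overlapped, and RpL22-like, with under 5 CPM in every library, rose (1.34 ± 0.40). Mitochondrial ribosomal proteins were alike, with 2 of 70 higher, mRpS9 (0.41 ± 0.10) and mRpL3 (0.39 ± 0.12), 3 lower, among them mRpS14 (-0.66 ± 0.17), and a median of -0.08. Without GFP replicate 1, GFP replicate 2 or porthos replicate 1 no member of either list was called, and without the first of these the medians were 0.03 and 0.01. With the trend of gene length removed they were 0.06 and 0.05, so the sign of neither median held under all settings.

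Few translation factors were called (4.35% higher), while 12.9% of the tRNA synthetases were higher and 3.23% lower. Of 46 tested translation factors 2 rose and 0 fell (median -0.004): eIF4G1, the scaffold of cap-dependent initiation (0.36 ± 0.10), and eEF1alpha2, a second gene for the elongation factor (0.94 ± 0.18). DENR, which works in reinitiation and ribosome recycling, is not on that list and fell. It had 20.6, 24.6 and 16.0 CPM with porthos dsRNA, against 34.0, 32.3 and 32.5 CPM with GFP dsRNA (-0.69 ± 0.15, edgeR adjusted p = 0.0082). Among 31 aminoacyl-tRNA synthetases 4 rose, led by AlaRS (0.57 ± 0.10) and GlnRS (0.44 ± 0.09), and SerRS-m of mitochondria fell (-0.40 ± 0.12). Of the synthetases 2 were higher without GFP replicate 1 or 2, 1 without porthos replicate 1 and 8 without porthos replicate 2. The calls of eEF1alpha2, DENR and AlaRS were kept, while eIF4G1 kept its call only without GFP replicate 3 or without porthos replicate 2 (highest adjusted p = 0.16).

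Thor, the 4E-BP that represses cap-dependent initiation and a target of TOR and ATF4, fell. It had 274, 249 and 277 CPM with porthos dsRNA, against 447, 368 and 415 CPM with GFP dsRNA (-0.62 ± 0.10, edgeR adjusted p = 0.001). All porthos dsRNA libraries lay well below all GFP dsRNA libraries, the call was kept, and the change in input was -0.41 ± 0.07. In the ATF4 list, the response to amino acid and folding stress, 3 of 16 genes fell (Thor, Ldh and the pseudokinase trbl, -0.46 ± 0.11) and 2 rose (Nmdmc and Cth), with a median of -0.18. In the list of Myc, TOR and insulin signalling 1 of 20 rose, the kinase Akt (0.38 ± 0.11), and 1 fell, again Thor. Akt was not called in 5 of the 6 fits, the exception being without porthos replicate 2.

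Components of splicing went both ways. Of 30 tested, 3 rose, with coding sequences of 771 to 2250 bases, and 3 fell, with 231 to 426 bases. Prp19, a ubiquitin ligase of the spliceosome, had 97.8, 86.8 and 104 CPM with porthos dsRNA and 59.0, 63.8 and 60.6 CPM with GFP dsRNA (0.65 ± 0.10, edgeR adjusted p = 0.00079). SNRPG, a small protein of the Sm ring, had 58.9, 59.5 and 63.8 CPM with porthos dsRNA and 95.3, 79.1 and 87.0 CPM with GFP dsRNA (-0.52 ± 0.10, adjusted p = 0.0041). Neither pair of groups overlapped and both calls were kept. Of the histone pre-mRNA machinery Lsm11 rose (0.62 ± 0.16) and Lsm10 fell (-0.74 ± 0.19), and each lost its call without GFP replicate 1, GFP replicate 2 or porthos replicate 1. No splicing gene fell once the trend of gene length was removed.

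The lists of silencing factors and germline genes were short, with 12.5% and 25.0% of members higher, against 6.53% of all genes. Of 16 RNA interference genes 15 were above 0, with vig (0.57 ± 0.12) and AGO2, the slicer of short interfering RNA (0.47 ± 0.11), higher and none lower. Of 8 germline markers 2 rose and 0 fell, and 7 were above 0. aub, a Piwi protein, had 135, 111 and 157 CPM with porthos dsRNA, against 88.5, 92.3 and 79.3 CPM with GFP dsRNA (0.63 ± 0.11, edgeR adjusted p = 0.0028), and its call was kept. bam, the differentiation factor of the germline (0.70 ± 0.19), was not called without GFP replicates 1, 2 or 3 or porthos replicate 1. vig and AGO2 were not called without GFP replicate 1 or porthos replicate 1.

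In the cell cycle list 4 of 32 genes fell and 1 rose. cid, the histone H3 of centromeres, had 6.94, 11.6 and 7.15 CPM with porthos dsRNA, against 15.4, 16.1 and 13.2 CPM with GFP dsRNA (-0.80 ± 0.21, edgeR adjusted p = 0.022). Cdk2 (-0.58 ± 0.16), Cdk4 (-0.30 ± 0.09) and the phosphatase stg (-0.32 ± 0.10) fell, and the replication helicase subunit Mcm6 rose (0.44 ± 0.10). None of the falls was called without GFP replicate 1, GFP replicate 2 or porthos replicate 1, and that of cid alone held without porthos replicate 3. Of 14 genes of p53, Xrp1 and cell death the activator rpr fell (-0.41 ± 0.08) and no other was called.

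Markers of plasmatocytes, the phagocytic hemocytes, held some of the largest rises. Of 11 tested, 3 rose and 0 fell, with a median of 0.21. eater, a receptor that binds bacteria, had 21.9, 15.8 and 23.7 CPM with porthos dsRNA, against 9.78, 8.42 and 9.48 CPM with GFP dsRNA (1.15 ± 0.18, edgeR adjusted p = 0.001). Pxn, the matrix enzyme peroxidasin, had 31.0, 44.5 and 41.4 CPM with porthos dsRNA, against 16.8, 19.6 and 17.5 CPM with GFP dsRNA (1.11 ± 0.15). Hml, the clotting protein hemolectin, had 47.0, 41.1 and 31.5 CPM with porthos dsRNA and 21.7, 21.9 and 26.9 CPM with GFP dsRNA (0.77 ± 0.15). In none of these did the groups overlap, although porthos replicate 3 came near GFP replicate 3 for Hml, whose call was lost without porthos replicate 1 (adjusted p = 0.057). In such bulk samples more cells of a type and more RNA per cell cannot be told apart.

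The same genes were higher in input, where Pxn had 1.18 ± 0.10, Hml 1.00 ± 0.09 and eater 0.94 ± 0.10, and the difference between the fractions did not pass for any of them. Not all markers shared in this: Col4a1 (0.30 ± 0.11) and SPARC (0.21 ± 0.10) did not pass on polysomes. Of the 11 tested, 8 lay above 0 and 3 below, the lowest at -0.19. With scaling by library size alone, drpr had 57.4 to 66.9 CPM with porthos dsRNA, against 69.7 to 77.1 CPM with GFP dsRNA. The summed level of the tested markers was 1843 to 2143 CPM with porthos dsRNA and 1633 to 1818 CPM with GFP dsRNA. Of 6 tested markers of crystal cells and lamellocytes, ItgaPS4 fell (-0.30 ± 0.09), and lz had at most 3 counts in a library. Their summed level was 1559 to 1634 CPM with porthos dsRNA and 1741 to 1931 CPM with GFP dsRNA. Most of that sum was Prx2, which was not called. With scaling by library size alone Prx2 had 1390 to 1460 CPM with porthos dsRNA and 1610 to 1760 CPM with GFP dsRNA. None of the 6 tested markers of neuron, muscle and fat body was called. Their part in other results was not tested.

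Of 25 immune effectors 2 were higher and 4 lower. These are 8.0% and 16.0%, against 6.53% and 3.43% of all genes, so the share higher is near the background. The Toll ligand spz (0.38 ± 0.09) and the IKK subunit key (0.36 ± 0.09) rose. The antimicrobial peptide CecC (-0.44 ± 0.11), the recognition protein PGRP-SA (-0.36 ± 0.11) and the inhibitor pirk (-0.37 ± 0.11) fell. None of these falls was called without GFP replicate 1, GFP replicate 2 or porthos replicate 1. Among 23 genes of actin and adhesion, Moe, which ties actin to the membrane, rose (0.47 ± 0.13) and the integrin if fell (-0.97 ± 0.23). The shares of 4.35% higher and 4.35% lower are no more than near the background. Neither gene was called without GFP replicate 1 or porthos replicate 1.

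The largest rises, of called genes with at least 10 CPM, were led by genes of less known function. CG8745 had 46.5, 51.4 and 54.8 CPM with porthos dsRNA, against 14.4, 14.1 and 15.4 CPM with GFP dsRNA (1.80 ± 0.12, edgeR adjusted p = 3.3e-07). The groups were tight and far apart. Its gene ends 25 bases from Hml, which lies on the opposite strand of chromosome 3L. CG17350 (1.39 ± 0.20), CG12133 (1.18 ± 0.11), CG4829 (1.07 ± 0.12), Nepl20, a member of the neprilysin family (1.06 ± 0.10), and CG5645 (1.02 ± 0.11) rose with calls that were kept, as was that of CG8745.

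Among called genes with at least 10 CPM, the largest falls after porthos were those of CG7768 (-1.33 ± 0.22), which lies within nuf on the same strand so that its counts are uncertain, and of the mucin gene Muc30E. Muc30E had 5.15, 7.53 and 5.03 CPM with porthos dsRNA, against 12.3, 14.7 and 12.9 CPM with GFP dsRNA (-1.17 ± 0.21, edgeR adjusted p = 0.0024). Its coding sequence of 5109 bases is far longer than that of most falling genes. CG3091 had 146, 149 and 148 CPM with porthos dsRNA, against 248, 242 and 228 CPM with GFP dsRNA (-0.70 ± 0.08), with hardly any spread within the porthos dsRNA group. CG11403 (-0.74 ± 0.15) and CG34033 (-0.71 ± 0.12) fell, and all 5 of these calls were kept. ImpL2, which binds insulin-like peptides outside the cell, had 3167, 2803 and 3160.05 CPM with porthos dsRNA, against 3874, 3844 and 3876 CPM with GFP dsRNA (-0.34 ± 0.09, adjusted p = 0.026). It is the falling gene with the most counts, and it was not called without GFP replicate 1, GFP replicate 2 or porthos replicate 1.

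Of 291 noncoding RNAs tested 9 fell and 1 rose on polysomes, with a median of -0.17, and 192 lay below 0 and 99 above. With the trend of gene length removed the median was -0.04, and 4 rose and 7 fell. A share of 3.09% lower is near the background of 3.43%. lncRNA:roX1, an RNA of dosage compensation, rose (0.57 ± 0.14). The small nucleolar RNA host gene Uhg3 fell (-0.39 ± 0.10), as did lncRNA:CR44953 (-0.40 ± 0.10). The number lower was 0 without GFP replicate 1, 1 without GFP replicate 2 or porthos replicate 1, 4 without GFP replicate 3 or porthos replicate 3 and 19 without porthos replicate 2. Of replication-dependent histones 1 of 111 genes was tested and it did not pass.

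The study concerns atos, which encodes the transcription factor Atossa, and it names porthos and CG9331 among the genes under its control. atos had 183, 215 and 193 CPM on polysomes with porthos dsRNA, against 264, 263 and 260.5 CPM with GFP dsRNA (-0.41 ± 0.09, edgeR adjusted p = 0.0085). Its GFP dsRNA libraries were nearly equal and all above the porthos dsRNA libraries. The call was lost without GFP replicate 2 and without porthos replicate 1 (adjusted p up to 0.075). CG9331 had 183, 220.2 and 187 CPM with porthos dsRNA, against 243, 195 and 198 CPM with GFP dsRNA, with overlap (-0.11 ± 0.10, adjusted p = 0.55).

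Set beside input, the polysome changes were partly shared. Of the 559 genes higher on polysomes 154 (27.5%) were also higher in input and 0 were lower, and these are 43% of the genes higher in input among those tested in both. Of 293 lower genes tested in input 77 (26.3%) were lower there and 2 were higher. The 77 are 23.4% of the genes lower in input. Over the 8474 genes tested in both, the changes had a Pearson's r of 0.35 and a Spearman's rho of 0.36, where genes do not count as independent replicates. For the 852 of these called on polysomes, a set picked by its polysome change, Pearson's r was 0.74. Of them 739 (86.7%) had the same sign in input. The fractions share no library, but each lysate gave both an input and a polysome sample, and the labels do not say which belong together.

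A call in one fraction only does not show that the fractions differ, and the test of that difference passed for few genes. Of 9024 genes in a fit of all 12 libraries 9 were called (0.0997%, background for this comparison), 7 with a polysome change above that in input (0.0776%) and 2 below (0.0222%), with 1352 genes at an unadjusted p under 0.05 and 118 called by DESeq2. All 9 were called on polysomes. Ns1, Nopp140, Prp19, ApepP, CG12213, CG8042 and FBgn0044510, for which no symbol was found, were above, and RpS20 and CG13751 below. CG12213, for example, had 84.1, 78.3 and 78.6 CPM on polysomes with porthos dsRNA, against 50.2, 57.6 and 59.7 CPM with GFP dsRNA (0.53 ± 0.10), and a log2 change of -0.07 ± 0.06 in input. No gene was called in this comparison without GFP replicate 1, GFP replicate 2 or porthos replicate 1 of either fraction or without porthos replicate 3 of the input. On polysomes, 694 genes were called without porthos replicate 2, 79 without GFP replicate 3 and 6 without porthos replicate 3.

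**Figure D5:**
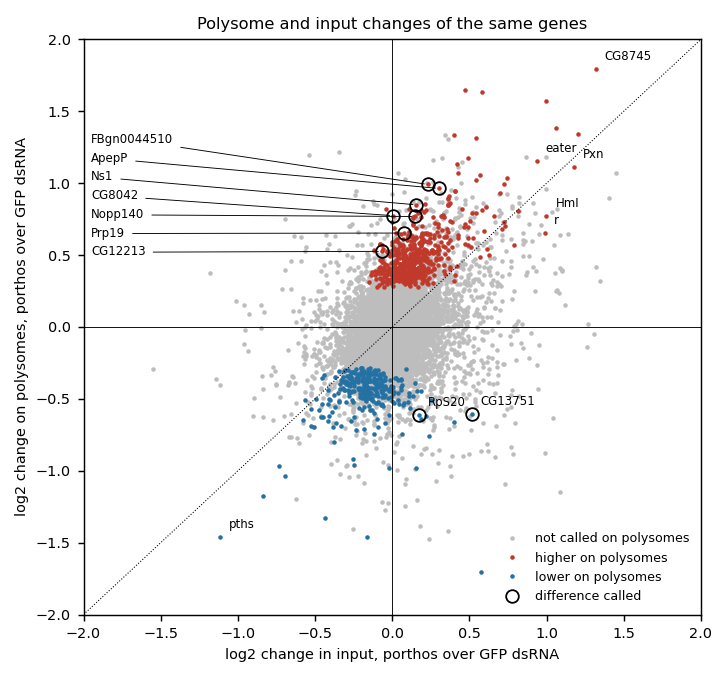
Log2 change on polysomes (y axis) against that in input (x axis), porthos over GFP dsRNA in both, for the genes tested in both fractions; red and blue points were called higher or lower on polysomes, circles mark the 9 genes whose 2 changes differed by the test, and the dotted line is equality (2 genes lie outside the plotted range). The 7 circled genes above the line lie between 0.53 and 0.99 on the y axis and closer to 0 on the x axis, while Pxn, Hml and eater lie close to the line.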

How the data were processed

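Poly(A) RNA from polysome fractions and input lysates of S2 cells was sequenced in 12 libraries, 3 per group. The authors deposited 1 table of raw read counts per gene for each library, made with HISAT2 2.1.0 and featureCounts 1.4.6 on dm6, per the submitters' processing notes. Which annotation release was used, whether counting used strand and how reads with several matches were treated is not given in the sources used here. Symbols were found for 16647 of 17023 identifiers (the rest held 5.18% of polysome counts).

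The 6 polysome libraries were fitted with edgeR 4.0.16 (R 4.3.3, limma 3.58.1) after filterByExpr with a minimum count of 10, with TMM scaling and the quasi-likelihood test. P-values were adjusted by the Benjamini-Hochberg method over all genes tested and called at 0.05. The standard error of a log2 change is its size divided by the square root of F. Input was fitted in the same way, and the difference of the polysome and input changes as an interaction over 12 libraries. Pipelines were tested on simulated data. Named genes are porthos, atos and CG9331, the 15 largest rises and falls among called genes with at least 10 CPM and no overlap, up to 5 members per list by p plus up to 3 that moved against it, the called genes with the most counts and those whose difference was called; further list members named beside them were chosen after their values were seen. The libraries and gene lists were chosen with earlier results of these data known.

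Alternatives were leaving out each library, a replicate block, scaling by library size alone or by RLE, DESeq2 1.42.0, limma voom, other filters (none, or 5 CPM in 3 libraries), all 12 libraries in 1 fit and removal of a trend of gene length. Gene length in that removal was the total length of a gene's annotated exons, not its coding length. A number of 3 counts was taken as the floor of detection, and such limits cover counting error only.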

Additional observations from a re-analysis of the deposited data

Results flagged for a closer look

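For 9 genes the polysome change differed from the input change by edgeR's interaction test (Benjamini-Hochberg adjusted over 9024 genes). The difference of the log2 changes was 0.77 for CG8042 (adjusted p = 0.017), 0.69 for Ns1 (0.018), 0.62 for Nopp140 (0.029), 0.66 for ApepP (0.036) and 0.59 for CG12213 (0.036). With an adjusted p of 0.046 each, it was 0.76 for FBgn0044510, 0.58 for Prp19, -0.78 for RpS20 and -1.12 for CG13751. For Nopp140, ApepP, CG12213, CG8042, RpS20 and CG13751 another tested gene lies across them on the other strand, and its part in these values was not tested.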

How the results depend on the processing

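Of the 138 named genes that were called, 0 changed direction in 15 settings, but some lists did, among them the V-ATPase by its counts and mitochondrial import, both sets of ribosomal proteins and complexes III and V by their medians, as given with them above. Leaving out 1 library gave 145 to 910 genes higher and 29 to 648 lower on polysomes, 162 to 344 higher and 137 to 334 lower in input, and 0 to 512 above and 0 to 182 below for the difference between the fractions. On polysomes all 12 libraries in 1 fit gave 1014 higher and 644 lower genes, and no filter gave 519 lower. For the difference, DESeq2 gave 100 above and 18 below, and scaling by library size alone gave 10 below. Scaling by library size alone brought the share of higher calls on polysomes to 49.1%, against 65.5%, and the median of all genes to -0.045. No filter brought the share to 55.5%. Same-numbered samples had correlations of their deviations of -0.007, 0.013 and 0.04 between the polysome groups and -0.023, 0.087 and 0.036 between the input groups. Between polysomes and input they were 0.065, 0.037 and 0.034 with porthos dsRNA and 0.073, 0.066 and 0.136 with GFP dsRNA. Not every pair passed 0.1, so the numbers were not taken to pair samples. Within either treatment each input library correlated best with the polysome library of its own number, which is a hint from the data and not from the design. A replicate block gave 588 higher and 365 lower genes on polysomes, 393 and 363 in input, and 28 above and 11 below for the difference. The contrast of short with long coding sequences stayed below 0 in the 6 fits without 1 library, nearest to 0 at -0.147 without GFP replicate 1. That contrast, these fits and the list counts without 1 library were chosen after seeing the data. Of the named and called genes 39 were called under every setting that tested them and 99 were lost under at least 1. FBgn0044510, among the 39, was tested in 14 of the 15 settings. The cause of these changes was not tested. With 3 counts at 0.317 to 0.397 CPM, changes of genes near that level were not detectable.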
